A study of Mus musculus with 30 samples.

Results

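The SLAM family receptors were followed by RNA sequencing in stem and progenitor cells sorted from mouse bone marrow. The members were the rows of the deposited count tables whose gene name was Slamf1, Cd48, Cd244a, Ly9, Cd84, Slamf6 or Slamf7, which gave 7 genes of 55471. All 7 had enough counts to be tested in both tables, in which 16631 genes (hematopoietic stem cells) and 15449 genes (multipotent progenitors) were tested in all.

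SLAM receptors are immunoglobulin-like cell surface proteins of blood cells that mostly bind a second copy of themselves on a neighbouring cell. The exceptions are CD48, which is held in the membrane by a lipid anchor and has no signalling tail, and CD244, which binds CD48. Most of the others carry tyrosine motifs that recruit the small adaptors SAP and EAT-2 and, through them or in their place, Src kinases and phosphatases. In bone marrow the family is known for the surface code by which stem cells are told from their progeny: CD150, the product of Slamf1, marks hematopoietic stem cells, whereas CD48 and CD244 appear as cells become multipotent or more restricted progenitors.

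The cells came from C57BL/6 mice given either phosphate-buffered saline (PBS) or MTP10-HDL, a nanoparticle built on high-density lipoprotein and loaded with muramyl tripeptide, a piece of bacterial cell wall that Nod2 senses. The groups were 7 PBS and 6 MTP10-HDL libraries of hematopoietic stem cells (HSCs) and 2 PBS and 3 MTP10-HDL libraries of bone marrow multipotent progenitors (MPPs), each from RNA of 4 pooled mice. For MPPs the labels give 3 injections of the nanoparticle within 5 days, with the marrow taken on the day after the last, and sorting by flow cytometry after magnetic depletion of lineage-positive cells. Not given in the sources used here are the schedule of the HSC mice, the age of the mice and the surface markers of the sort gates. Because CD150 and CD48 are widely used to gate these cells, a transcript level set by the gate and one set within the cells cannot be told apart, nor can fewer cells of a type and less RNA per cell. P-values measure the spread between pools and not between mice.

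HSC libraries held 4064155 to 7879858 counts and MPP libraries 11252479 to 32769369. Within MPPs the groups did not overlap in counts (PBS 11252479 to 14691375, MTP10-HDL 17555267 to 32769369). Nor did they overlap in immunoglobulin share (6.20% to 12.5% against 2.76% to 4.26%) or ribosomal RNA share (1.26% to 1.47% against 0.508% to 0.915%). In MPPs treatment, depth and these shares therefore cannot be told apart. For HSCs the complementary DNA was amplified, for MPPs poly-A-selected RNA went into another kit, so kit and cell type cannot be told apart, and levels of the tables are set side by side without a test. Levels are in CPM, that is, reads per library total on a common scale, with totals adjusted by TMM (trimmed mean of M values). The labels were checked on PBS means: of the 10 HSC markers 8 were higher in the HSC table, and of the 6 MPP markers 5 were higher in the MPP table. Flt3 and Cd34, which mark MPPs, averaged 710.5 and 909.3 CPM in MPP PBS libraries against 128.4 and 213.0 CPM in HSC PBS libraries. Against the labels, the HSC markers Procr (54.1 against 22.2 CPM) and Ly6a (174.0 against 109.1 CPM), the latter on both lists, were higher in MPPs. Markers of other cells were present in both tables. HSC PBS 2 stood highest in plasma cell markers and HSC MTP10-HDL 1 highest in monocyte, macrophage, dendritic cell and mature neutrophil markers.

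The 7 genes sit beside each other on chromosome 1 of the mouse genome, in the order Cd244a, Ly9, Slamf7, Cd48, Slamf1, Cd84 and Slamf6, within 390.2 kb (GRCm38.p6, chr1:171558718-171948958). The RefSeq promoter table (GRCm38.p6) held an entry for 6 of the 7, all but Ly9. The 250 bases before the start site are shown for Slamf1, whose levels lay farthest apart between the HSC and MPP tables, and for Cd48 and Cd244a, the ligand and receptor pair whose levels were higher in every treated MPP library. All 3 are on the plus strand. The start site is that of the promoter entry. The RefSeq gene spans begin at 171558718 for Cd244a and 171681245 for Cd48, so the windows of both lie inside the spans. Capitals mark the only matches to the motifs searched: TGATAA, a motif of GATA factors, in Slamf1, TGTGGT, a RUNX motif, in Cd48, and the E box CACGTG in Cd244a.
Slamf1, chr1:171766882-171767131: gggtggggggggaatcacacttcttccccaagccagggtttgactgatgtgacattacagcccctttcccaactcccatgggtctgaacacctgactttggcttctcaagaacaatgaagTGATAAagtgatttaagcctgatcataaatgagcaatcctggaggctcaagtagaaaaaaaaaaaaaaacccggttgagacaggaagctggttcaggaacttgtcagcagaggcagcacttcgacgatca
Cd48, chr1:171681742-171681991: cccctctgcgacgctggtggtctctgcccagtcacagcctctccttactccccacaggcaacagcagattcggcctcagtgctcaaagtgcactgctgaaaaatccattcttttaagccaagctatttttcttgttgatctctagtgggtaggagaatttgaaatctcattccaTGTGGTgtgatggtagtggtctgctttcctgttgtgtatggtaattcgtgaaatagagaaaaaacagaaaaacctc
Cd244a, chr1:171558943-171559192: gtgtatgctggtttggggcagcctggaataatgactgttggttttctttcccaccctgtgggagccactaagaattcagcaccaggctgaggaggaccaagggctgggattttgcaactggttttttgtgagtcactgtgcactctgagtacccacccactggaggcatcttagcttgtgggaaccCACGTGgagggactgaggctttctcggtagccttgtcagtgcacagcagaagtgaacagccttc

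The TGATAA match began 130 bases before the Slamf1 start, and these letters occurred on either strand in 7.94% of 32851 promoter windows of the same length. The TGTGGT match began 76 bases before the Cd48 start, and Cd84 held another 45 bases before its start; 14.0% of the windows held it. The CACGTG match of Cd244a lay 64 bases before the start, and 6.02% of the windows held that motif. No member window held AGATAA (another GATA motif, in 9.99% of windows), CCGGAAGT (ETS, 2.88%), TTCNNNGAA (STAT, 7.02%), the interferon response element (2.98%) or the kappa B motif (1.41%), all searched on both strands; Slamf6 and Slamf7 held none of the 8. No match overlapped another, and a match describes letters and not a bound site.

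No member passed a false discovery rate (FDR) of 0.05 in either cell type by edgeR's quasi-likelihood test with Benjamini-Hochberg adjustment over all genes tested, and 0% of all genes did so in HSCs and 0% in MPPs. At an unadjusted p under 0.05 the same test marked 0 members in HSCs, where it marked 8.83% of all genes (4.36% higher, 4.47% lower), and 3 members in MPPs, where it marked 6.23%. The 3 were Cd48 and Cd244a, higher with MTP10-HDL as were 2.17% of all genes, and Slamf7, lower as were 4.06%. In MPPs the treated and PBS libraries did not overlap for 4 members, Cd48 and Cd244a higher and Slamf1 and Slamf7 lower, against 24.3% of all genes (12% higher, 12.3% lower); in HSCs the groups overlapped for every member, against 0.343% of genes without overlap. The fold change was above 0 for 5 members in HSCs, as for 47.7% of all genes, and for 4 in MPPs, as for 52%. The median log2 fold change of the 7 was 0.11 in HSCs and 0.11 in MPPs, beside -0.02 and 0.02 over all genes tested. DESeq2 called 0 members in HSCs, against 0.189% of all genes, and 1 in MPPs, Slamf7, against 0.584%. Limma voom called 0 members and 0% of genes in both. Without a filter on low counts edgeR called 2 in MPPs, Slamf7 and Cd48, against 1.32% of genes, and 0 in HSCs, against 0.0921%. In HSCs members at an unadjusted p under 0.05 were 1 without that filter (Cd48, against 9.88% of genes), 1 with a replicate block (Slamf7, 6.31%) and 2 with library sets as a covariate (Cd48 and Slamf7, 9.7%).

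**Figure D1:**
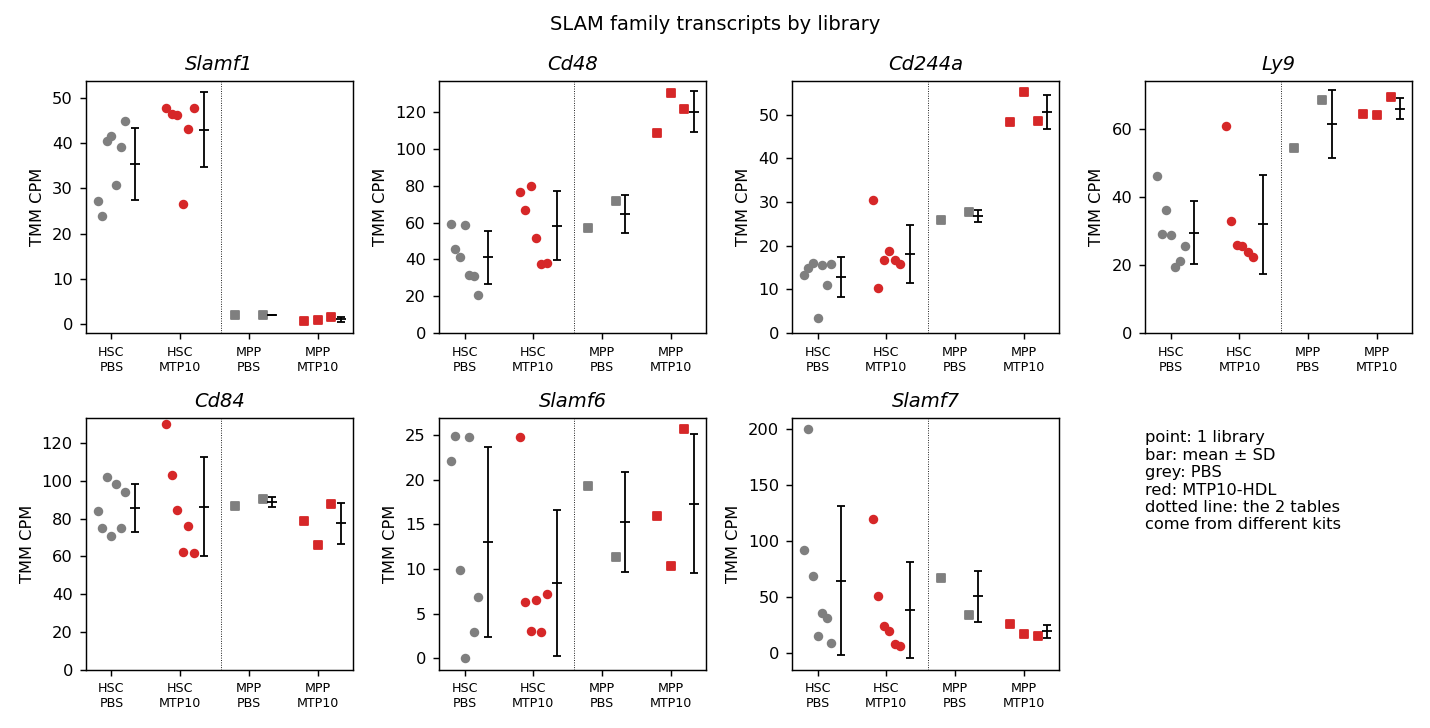
Level of each member (TMM CPM, linear axis) in every library: grey for PBS, red for MTP10-HDL, circles for HSCs and squares for MPPs, with the group mean and SD beside the points. Slamf1 is at 23.9 to 47.8 CPM in the HSC table and at 0.649 to 2.04 CPM in the MPP table, and the red squares of Cd48 and Cd244a lie above the grey ones.

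Slamf1 (ENSMUSG00000015316) encodes CD150, which binds itself and in macrophages also bacterial surface proteins. In HSC PBS libraries its level ran from 23.9 CPM over a median of 39.1 to 44.9 CPM (mean 35.4 ± 8.03, SD, n = 7). In HSC MTP10-HDL libraries it ran from 26.5 over a median of 46.3 to 47.8 CPM (42.9 ± 8.26, SD, n = 6). The groups overlapped: 5 treated libraries lay between 43.0 and 47.8 CPM and MTP10-HDL 4 lay apart at 26.5 CPM. In HSCs the log2 fold change was 0.28 (SE 0.18; 95% interval -0.11 to 0.66; edgeR FDR 0.659), and it was 0.39 without MTP10-HDL 4, again with no pass. A 2-sided exact permutation test over the 13 libraries gave p = 0.148.

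In MPPs Slamf1 was near the bottom of what was counted. MPP PBS 2 and PBS 3 stood at 1.97 and 2.04 CPM, from 29 and 23 reads. MPP MTP10-HDL 1, 2 and 3 stood at 0.649, 0.887 and 1.54 CPM, from 22, 25 and 28 reads. Both PBS libraries lay above all 3 treated ones, but the exact Poisson 95% intervals of PBS 2 (1.32 to 2.83 CPM) and MTP10-HDL 3 (1.02 to 2.23 CPM), which cover counting error only, overlapped. The log2 fold change was -0.97 (SE 0.75; 95% interval -2.73 to 0.78; edgeR FDR 0.889). In the fit of both tables, the MPP response minus the HSC response was -1.26 on the log2 scale (SE 0.43; 95% interval -2.15 to -0.36; edgeR FDR 1.00) and did not pass. Of 24470 genes tested for a difference in response, 0.00409% passed and 3.86% were at an unadjusted p under 0.05 (1.19% higher in MPPs, 2.67% lower); Slamf1, lower, was the 1 member among them. The fit of both tables gave each gene 1 spread for both kits. For Slamf1 its SE of 0.43 was below the 0.75 of the MPP response alone. The interval of the difference may therefore be too narrow and its unadjusted p too small. The response was higher in MPPs for 4 members and for 55.8% of all genes.

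Cd48 (ENSMUSG00000015355) encodes the ligand of CD244 and, in mice, of CD2. MPP PBS 2 and PBS 3 had 57.2 and 71.8 CPM, and MPP MTP10-HDL 1, 2 and 3 had 108.6, 130.6 and 121.8 CPM. Each treated library was well above both PBS libraries, on 811 to 3684 reads a library. The group means were 64.5 ± 10.3 (SD, n = 2) and 120.3 ± 11.1 CPM (SD, n = 3). The difference was 1.87-fold, a log2 fold change of 0.90 (SE 0.21; 95% interval 0.41 to 1.40; edgeR FDR 0.421). DESeq2 gave an FDR of 0.0536, and edgeR without the filter gave 0.0464. A 2-sided exact permutation test of the 5 libraries gave p = 0.1, the smallest p that 10 arrangements allow.

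In HSCs the Cd48 level ran from 20.9 over a median of 41.3 to 59.1 CPM with PBS (41.2 ± 14.5, SD, n = 7). With MTP10-HDL it ran from 37.4 over a median of 59.3 to 79.8 CPM (58.4 ± 18.7, SD, n = 6). The groups overlapped; MTP10-HDL 1, 2 and 3 lay above every PBS library and MTP10-HDL 4, 5 and 6 lay within the PBS range. The log2 fold change was 0.50 (SE 0.25; 95% interval -0.03 to 1.03; edgeR FDR 0.574). The libraries fell into 3 sets by detected genes and ribosomal RNA share. Within them the Cd48 difference was 0.31, 0.52 and 0.45 on the log2(CPM + 1) scale. The first 2 sets hold 2 PBS and 2 MTP10-HDL libraries each, the third 3 PBS and 2 MTP10-HDL, so these values are a description. With the set as a covariate the log2 fold change was 0.44 (edgeR FDR 0.382). Across the 13 HSC libraries, on the log2(CPM + 1) scale, Cd48 moved with the summed dendritic cell markers, with r = 0.68 (permutation p = 0.0102, adjusted over 35 relations 0.0448; rho 0.65, adjusted 0.0795), and 0.67 without MTP10-HDL 1 and PBS 2. It had r = 0.66 with the monocyte and macrophage markers (adjusted permutation p = 0.0494; rho 0.62, adjusted 0.106), and 0.55 without MTP10-HDL 1 and PBS 1. The sums of both lists are given with Slamf7, and their part in the Cd48 level was not tested. The Cd48 response of MPPs and HSCs differed by 0.43 (SE 0.44; 95% interval -0.49 to 1.34; edgeR FDR 1.00).

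Cd244a (ENSMUSG00000004709) encodes CD244, also called 2B4, the receptor for CD48 best known from natural killer cells. In MPPs it stood at 25.9 and 27.8 CPM in PBS 2 and PBS 3, and MTP10-HDL 1, 2 and 3 had 48.3, 55.2 and 48.6 CPM. The treated libraries lay close together, and all were above the PBS pair. The difference was 1.89-fold, a log2 fold change of 0.92 (SE 0.20; 95% interval 0.44 to 1.39; edgeR FDR 0.379). It ranged from 0.85 to 0.97 when each MPP library was left out in turn. DESeq2 gave an FDR of 0.0628, and the exact permutation p was again 0.1.

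In HSCs Cd244a ran from 3.39 over a median of 14.9 to 16.0 CPM with PBS, and from 10.2 over a median of 16.7 to 30.5 CPM with MTP10-HDL. The low PBS value was PBS 4, on 27 reads, and the high treated value was MTP10-HDL 1; the other 11 libraries lay between 10.2 and 18.8 CPM, with both groups mixed. This gave a log2 fold change of 0.49 (SE 0.32; 95% interval -0.18 to 1.16; edgeR FDR 0.656). It was 0.29 without MTP10-HDL 1 and 0.32 without PBS 4. The responses of MPPs and HSCs differed by 0.44 (SE 0.52; edgeR FDR 1.00).

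Markers of T and natural killer cells, led by Nkg7, a granule protein, and Cd4, are given beside Cd244a. The 11 markers summed to 57.7 to 163.8 CPM in HSC PBS, 97.2 to 138.3 CPM in HSC MTP10-HDL, 65.6 and 69.1 CPM in MPP PBS and 67.4 to 97.9 CPM in MPP MTP10-HDL libraries. In HSCs 5 of 8 tested were higher with treatment and in MPPs 4 of 7. In both, 0 were at an unadjusted p under 0.05, against 8.83% and 6.23% of all genes. The T cell marker Cd3e was at 0 in 1 MPP PBS and all 3 treated MPP libraries. The natural killer cell marker Ncr1 stood at 0.476 and 0.973 CPM in MPP PBS and at 1.33 to 3.05 CPM in treated MPPs. Its groups did not overlap, as for 24.3% of all genes in MPPs, and it did not pass (edgeR FDR 0.840). Of the other markers tested in MPPs, Nkg7, Klrb1c and Gzma were higher with overlap. Cd4 was lower without overlap, and Il2rb (means 6.56 and 3.58 CPM) and Cd8a were lower with overlap. Across the HSC libraries Cd244a had r = 0.62 with the summed markers (adjusted permutation p = 0.0752; rho 0.37), and 0.51 without PBS 4 and PBS 1. Their part in the Cd244a level was not tested.

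**Figure D2:**
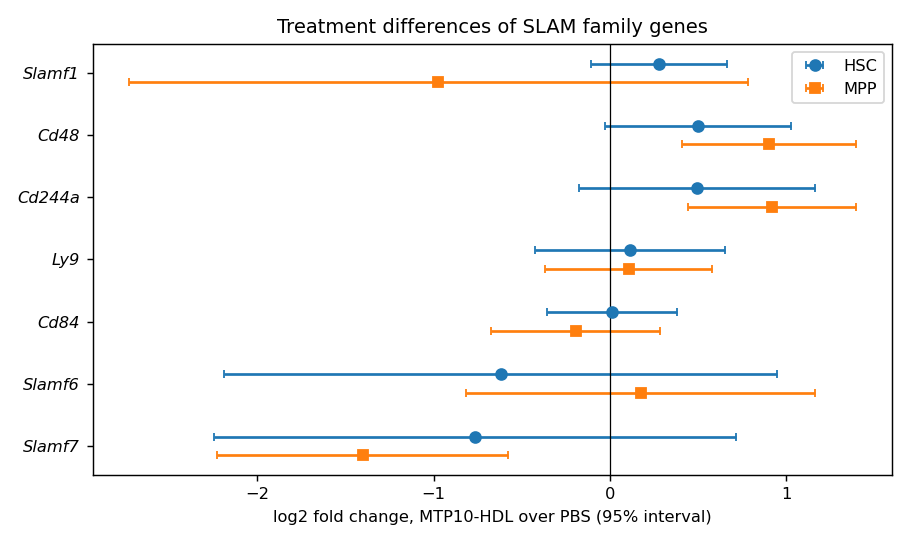
Log2 fold change of each member, MTP10-HDL over PBS, with its 95% interval, blue circles for HSCs and orange squares for MPPs. The MPP intervals of Cd48 (0.41 to 1.40), Cd244a (0.44 to 1.39) and Slamf7 (-2.23 to -0.58) leave out 0, and those of the other members and all HSC intervals include it.

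The ratio of Slamf1 to Cd48 reads within a library does not depend on scaling and shows how far the cells of the tables stand apart on the code used for stem cells. It ran from 0.462 over a median of 0.965 to 2.15 in HSC PBS libraries and from 0.514 over a median of 0.658 to 1.26 in HSC MTP10-HDL libraries. It was 0.0345 and 0.0284 in MPP PBS 2 and PBS 3, and 0.00597, 0.00680 and 0.0127 in MPP MTP10-HDL 1, 2 and 3. Every MPP library lay below every HSC library, and HSC PBS 7 was the highest. The treated MPP libraries lay below the MPP PBS pair. This follows from Slamf1 being lower and Cd48 higher without overlap, as given above, and is no further support. In MPPs the groups did not overlap for 24.3% of all genes, and Slamf1 had 22 to 29 reads a library. Transcript length was not used, so the ratio is compared between libraries and does not rank the genes. Kit and cell type differ together here too.

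**Figure D3:**
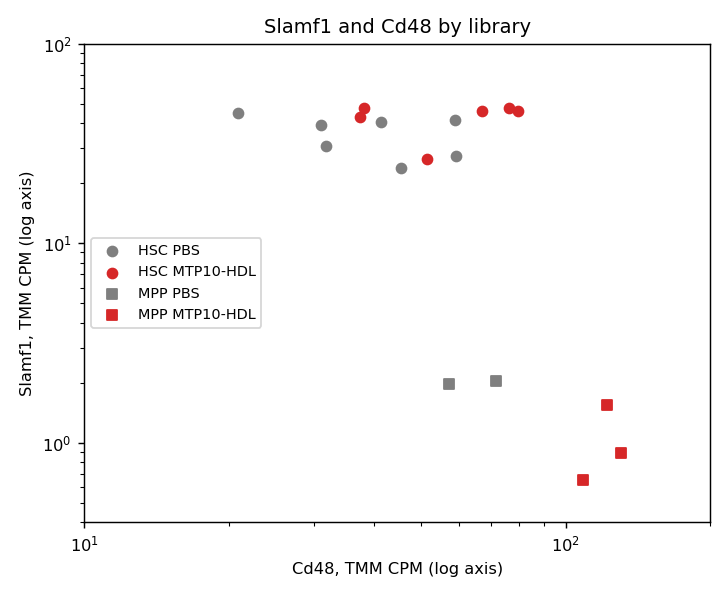
Slamf1 against Cd48 in every library (TMM CPM, both axes logarithmic), circles for HSCs, squares for MPPs, grey for PBS and red for MTP10-HDL. The HSC libraries form a band at 23.9 to 47.8 CPM of Slamf1 and 20.9 to 79.8 CPM of Cd48; the 3 treated MPP libraries lie to the right of and below the PBS pair.

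Stem and progenitor markers of the MPPs are given beside Slamf1 and Cd48, and no relation was computed across the MPP libraries. Of the 10 HSC markers, 4 were lower in treated MPPs at an unadjusted p under 0.05, as were 4.06% of all genes. In all, 8 of the markers were lower, and none passed an FDR of 0.05. Their summed level was 1630 to 1763 CPM in MPP PBS and 1019 to 1222 CPM in MPP MTP10-HDL libraries. The 6 MPP markers summed to 2407 and 2808 CPM in MPP PBS and to 2947 to 3083 CPM in treated MPPs. Of these, 4 were higher in treated MPPs, 1 of them (Satb1) at an unadjusted p under 0.05, as were 2.17% of all genes. Kit and Ly6a, which are on both lists, were lower. No marker of these 2 lists was at 0 in any library. Their part in the Slamf1 and Cd48 differences was not tested. In HSC libraries the HSC markers summed to 1453 to 2897 CPM with PBS and 1470 to 2325 CPM with MTP10-HDL. There 0 of the 10 were at an unadjusted p under 0.05, against 8.83% of all genes.

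Slamf7 (ENSMUSG00000038179) encodes CRACC, a self-binding receptor of natural killer cells, activated macrophages and, most of all, plasma cells. In MPPs, PBS 2 and PBS 3 had 66.5 and 33.8 CPM, and MPP MTP10-HDL 1, 2 and 3 had 25.7, 16.4 and 14.9 CPM. All treated libraries lay below both PBS libraries, which themselves differed widely. The log2 fold change was -1.40 (SE 0.35; 95% interval -2.23 to -0.58; edgeR FDR 0.485). DESeq2 gave -1.41 with an FDR of 0.0282, and edgeR without the filter gave an FDR of 0.000147. Without PBS 2 it was -0.84 and no longer at an unadjusted p under 0.05, and without PBS 3 it was -1.81.

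In HSCs Slamf7 was the member that varied most among the libraries of a group. It ran from 8.59 over a median of 35.3 to 199.7 CPM with PBS, and from 6.20 over a median of 21.7 to 119.3 CPM with MTP10-HDL. PBS 2 was the highest of all and MTP10-HDL 1 the second, and the groups overlapped throughout. The coefficient of variation was 103% in PBS and 113% in MTP10-HDL libraries, against 22.7% and 19.2% for Slamf1. Treated over PBS libraries gave a log2 fold change of -0.77 (SE 0.70; 95% interval -2.25 to 0.71; edgeR FDR 0.751). It was -1.57 (edgeR FDR 0.464, at an unadjusted p under 0.05) without MTP10-HDL 1 and -0.13 without PBS 2. With the library set as a covariate it was -1.10 (edgeR FDR 0.495).

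Slamf7 moved with the plasma cell markers across the HSC libraries, and no relation was computed across the MPP libraries. The 8 markers, led by Jchain, the joining chain of secreted antibodies, and Pou2af1, a B cell coactivator, summed to 6899 and 3492 CPM in MPP PBS 2 and PBS 3. They summed to 2237, 3520 and 1244 CPM in MPP MTP10-HDL 1, 2 and 3. All 8 were lower in treated MPPs, 6 at an unadjusted p under 0.05, against 4.06% of all genes. The sums of MPP PBS 3 and MTP10-HDL 2 were close, while their Slamf7 levels were 33.8 and 16.4 CPM. In HSCs the markers summed to 105.5 to 7369 CPM with PBS and 74.1 to 1545 CPM with MTP10-HDL. All 7 tested in HSCs were lower, 2 at an unadjusted p under 0.05, against 4.47% of all genes. Across the 13 HSC libraries, on the log2(CPM + 1) scale, Slamf7 and the plasma sum had Pearson r = 0.80 (permutation p = 0.00111, adjusted over 35 relations 0.00741) and Spearman rho = 0.77 (permutation p = 0.00285, adjusted 0.0256). Without PBS 2 and MTP10-HDL 6, the libraries farthest from the median of the plasma sum, r was 0.62; it was 0.87 in the PBS and 0.67 in the MTP10-HDL libraries.

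Across the HSC libraries Slamf7 also moved with other marker lists. It had r = 0.80 (adjusted permutation p = 0.00741; rho 0.81) with the 12 monocyte and macrophage markers, and 0.76 without MTP10-HDL 1 and PBS 1. It had r = 0.80 with the 10 dendritic cell markers and 0.69 with the 10 B cell markers (adjusted permutation p = 0.00741 and 0.0412). The sets by detected genes and ribosomal RNA share hold 4 or 5 libraries each, too few for a correlation within them. The monocyte and macrophage markers, led by Ly6c2 and Csf1r, summed to 203.7 to 1628 CPM in HSC PBS and 253.1 to 2626 CPM in HSC MTP10-HDL libraries, where 9 of 12 were higher. In MPPs they summed to 422.5 and 445.6 CPM with PBS and to 262.1 to 346.1 CPM with MTP10-HDL. There 7 of 11 tested were lower, 3 at an unadjusted p under 0.05, against 4.06% of all genes. The dendritic cell markers, led over the 18 libraries by Cd74 and by Flt3, which MPPs express too, and in the HSC libraries by Cd74 and H2-Ab1, summed to 268.8 to 1997 CPM in HSC PBS and 339.3 to 5940 CPM in HSC MTP10-HDL libraries, and 6 of 9 tested were higher. In MPPs they summed to 1663 and 1790 CPM with PBS and to 1366 to 1598 CPM with MTP10-HDL. There 7 of 10 were lower, 6 at an unadjusted p under 0.05, against 4.06% of all genes. The part of these cells in the Slamf7 level was not tested. Tnfrsf17 and Mzb1, which define plasma cells, were at 0 in 2 and 1 of the 18 libraries.

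**Figure D4:**
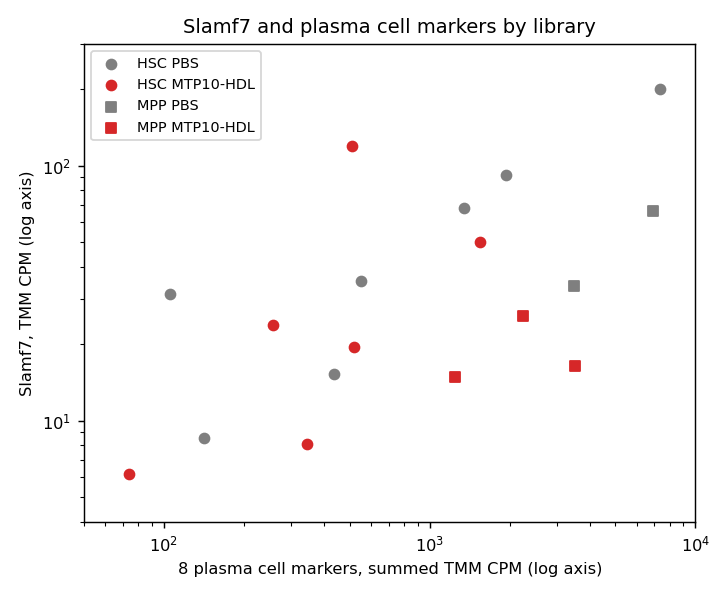
Slamf7 (TMM CPM) against the summed level of 8 plasma cell markers (TMM CPM), both axes logarithmic, 1 point a library. HSC PBS 2 (7369 CPM of plasma markers, 199.7 CPM of Slamf7) is at the upper right, and the MPP libraries lie to the right of most HSC libraries, with the PBS pair above the 3 treated ones.

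Ly9 (ENSMUSG00000004707) encodes CD229, a self-binding receptor of lymphocytes and early progenitors. In HSCs it ran from 19.4 over a median of 28.9 to 46.1 CPM with PBS and from 22.4 over a median of 25.7 to 60.8 CPM with MTP10-HDL. MTP10-HDL 1 alone exceeded the PBS range, and the other 5 treated libraries lay within it. The log2 fold change was 0.11 (SE 0.26; edgeR FDR 0.900), and -0.17 without MTP10-HDL 1. In MPPs, PBS 2 and PBS 3 had 54.2 and 68.3 CPM and MPP MTP10-HDL 1, 2 and 3 had 64.2, 64.0 and 69.3 CPM. The groups overlapped, with a log2 fold change of 0.11 (SE 0.20; 95% interval -0.37 to 0.58; edgeR FDR 0.964). Across the HSC libraries Ly9 had r = 0.84 with the dendritic cell markers (permutation p = 0.000340, adjusted 0.00741; rho 0.74), and 0.76 without MTP10-HDL 1 and PBS 2. With the monocyte and macrophage markers it had r = 0.80, which dropped to 0.43 without MTP10-HDL 1 and PBS 1 and so rests on them.

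Cd84 (ENSMUSG00000038147) encodes a self-binding receptor of platelets, mast cells and many leukocytes. It had the smallest coefficient of variation of the members in HSC PBS libraries, 14.8%. In HSCs it ran from 70.9 over a median of 83.9 to 102.3 CPM with PBS and from 61.9 over a median of 80.4 to 129.9 CPM with MTP10-HDL. The treated libraries spread to both sides of the PBS libraries, MTP10-HDL 1 highest. Their log2 fold change was 0.01 (SE 0.18; 95% interval -0.36 to 0.38; edgeR FDR 0.989), and its sign turned under several settings. MPP PBS 2 and PBS 3 had 86.8 and 90.6 CPM and MPP MTP10-HDL 1, 2 and 3 had 79.0, 65.9 and 87.5 CPM. MTP10-HDL 3 lay between the PBS libraries, with a log2 fold change of -0.20 (SE 0.21; 95% interval -0.67 to 0.28; edgeR FDR 0.921). The 8 platelet and megakaryocyte markers summed to 72.8 to 337.0 CPM in HSC PBS and 110.2 to 359.4 CPM in HSC MTP10-HDL libraries. In MPPs they summed to 35.1 and 49.1 CPM with PBS and 45.9 to 50.3 CPM with MTP10-HDL. At an unadjusted p under 0.05 were 0 of 7 tested in HSCs and 1 of 6 in MPPs, against 8.83% and 6.23% of all genes. Gp1bb was at 0 in 16 of the 18 libraries. By ratio of PBS means on these totals, Cd84 was also the member nearest in level between the tables. Its PBS means were 85.6 ± 12.6 (SD, n = 7) in HSCs and 88.7 ± 2.68 CPM (SD, n = 2) in MPPs. Mitochondrial genes held 21.8% to 29.5% of counts in HSC PBS and 2.30% to 2.84% in MPP PBS libraries. On the totals without immunoglobulin, mitochondrial and ribosomal RNA genes given at the end, the Cd84 means lay farther apart. The order of the members may therefore depend on the totals.

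Slamf6 (ENSMUSG00000015314) encodes Ly108, a self-binding receptor of T and B lymphocytes. In HSC PBS 4 no read was counted, and 3 counts there would be 0.376 CPM. The other PBS libraries held 2.89 to 24.8 CPM (median of all 7, 9.93), and PBS 1, 2 and 5 were at 22.1, 24.8 and 24.7 CPM. In HSC MTP10-HDL libraries it ran from 2.93 over a median of 6.44 to 24.7 CPM, and MTP10-HDL 1 was the 1 above 7.24 CPM. The groups overlapped, with a log2 fold change of -0.62 (SE 0.74; 95% interval -2.19 to 0.95; edgeR FDR 0.809). It ran from -1.31 without MTP10-HDL 1 to -0.37 without PBS 2 when each library was left out, and limma voom turned it to 0.57. In MPPs, PBS 2 and PBS 3 had 19.3 and 11.3 CPM and MPP MTP10-HDL 1, 2 and 3 had 16.0, 10.3 and 25.6 CPM. The groups overlapped fully, with a log2 fold change of 0.17 (SE 0.43; edgeR FDR 0.972).

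Slamf6 moved with the B cell markers across the HSC libraries, with r = 0.78 (permutation p = 0.00101, adjusted 0.00741; rho 0.76), and 0.76 without PBS 5 and PBS 2. The 10 B cell markers, led by Cd79b, a chain of the B cell receptor, and Ebf1, a B cell transcription factor, summed to 45.8 to 441.9 CPM in HSC PBS and 46.2 to 119.8 CPM in HSC MTP10-HDL libraries. All 9 tested in HSCs were lower with treatment, 7 at an unadjusted p under 0.05, against 4.47% of all genes. In MPPs the markers summed to 269.7 and 437.3 CPM with PBS and to 216.6 to 328.3 CPM with MTP10-HDL. There 7 of 10 were lower, 3 at an unadjusted p under 0.05, against 4.06% of all genes. With the T and natural killer cell markers Slamf6 had r = 0.66 (adjusted permutation p = 0.0494; rho 0.57, adjusted 0.130), which dropped to 0.32 without PBS 4 and PBS 1 and so rests on them. The part of these cells in the Slamf6 level was not tested. Slamf1 ran the other way, with r = -0.65 against the B cell markers (adjusted permutation p = 0.0494; rho -0.58, adjusted 0.130) and -0.61 against the plasma cell markers (adjusted permutation p = 0.0752). Without the pair of libraries farthest from the median, these were -0.39 and -0.31, so they rest on those libraries. Within the PBS libraries r was -0.81 with the B cell and -0.79 with the plasma cell markers. Within the MTP10-HDL libraries it was 0.05 and -0.19.

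The members did not move as a block across the 13 HSC libraries. Over the 21 pairs, Pearson's r of log2(CPM + 1) ran from -0.46 for Slamf1 and Slamf7 to 0.69 for Cd244a and Slamf6. Cd48 and its receptor Cd244a had r = -0.02. Slamf1 had r = 0.06 with Cd48. These values describe libraries that share kit and treatment groups and carry no test.

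Genes most like each member over the same libraries were named by the highest r among 9690 genes of at least 10 CPM on average, as a description. For Slamf1 they were Prkch (r = 0.93), Zfp235 (0.84) and Gbp2 (0.83). For Cd48 they were Actb (0.93), Rhoa (0.93) and Gm45137 (0.93), and for Cd244a Dglucy (0.93), Snx20 (0.91) and Mefv (0.86). Ly9 was nearest to Abca1 (0.92), Gbp8 (0.92) and Fez2 (0.91), and Cd84 to Ss18l1 (0.89), Fyb (0.86) and Epsti1 (0.85). For Slamf6 they were Itpr2 (0.92), Snx9 (0.91) and Snx2 (0.90), and for Slamf7 Fndc3a (0.95), Kmo (0.91) and Cd2ap (0.90).

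Signalling partners of the family were taken from a list of 29 genes: the adaptors, kinases, phosphatases, docking proteins, phagosome partners of Slamf1, and the relatives Slamf8, Slamf9 and Cd2. Of these, 27 were tested in each cell type and 0 passed an FDR of 0.05 by edgeR. In HSCs 18 were higher and 9 lower, and the median log2 fold change was 0.16, beside -0.02 over all genes tested. At an unadjusted p under 0.05, 3 were higher and 1 lower, against 4.36% and 4.47% of all genes. In MPPs 10 were higher and 17 lower, and the median was -0.07, beside 0.02 over all genes tested. At an unadjusted p under 0.05, 1 was higher and 1 lower, against 2.17% and 4.06% of all genes. The adaptors Sh2d1a (SAP) and Sh2d1b2 were untested for low counts; Sh2d1a averaged 0.723 CPM in HSC PBS libraries and was at 0 in both MPP PBS libraries. Sh2d1b1 (EAT-2) averaged 7.75 CPM in HSC PBS and 1.36 CPM in MPP PBS libraries.

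The partners of smallest p are given as values that did not pass. Cd2, the other receptor for CD48, ran from 2.61 to 10.5 CPM in HSC PBS and from 0.122 to 3.09 CPM in HSC MTP10-HDL libraries, with little overlap (log2 fold change -2.57, SE 0.64, edgeR FDR 0.261). Ptpn6, the phosphatase SHP-1, averaged 74.7 ± 11.7 (SD, n = 7) and 101.5 ± 31.7 CPM (SD, n = 6), with overlap (0.44, SE 0.17, edgeR FDR 0.497). In MPPs Lck, a Src kinase, stood at 34.4 and 35.8 CPM with PBS and at 48.6 to 60.8 CPM with MTP10-HDL (0.60, SE 0.21, edgeR FDR 0.726). Slamf9, a short-tailed relative, stood at 6.64 and 8.17 CPM with PBS and at 2.42 to 5.23 CPM with MTP10-HDL (-1.11, SE 0.47, edgeR FDR 0.794). The MPP groups did not overlap for Lck and Slamf9, as for 24.3% of all genes.

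Genes beside the cluster give the neighbourhood of the members. Of the 9 other RefSeq genes within it, 5 were found in the files by symbol and 0 were tested in both tables. The nearest tested genes before it, Tstd1, F11r and Alyref2, had MPP log2 fold changes of -0.51, -0.57 and -0.10, and F11r, a junction protein, had the smallest p of them (edgeR FDR 0.787). Those after it, Vangl2, Ncstn and Copa, had MPP log2 fold changes of 0.26, -0.01 and 0.09 and HSC log2 fold changes of 0.34, 0.27 and 0.25, and no one passed. Cd244a, Slamf7, Cd84 and Slamf6 overlap the RefSeq genes Gm35200, Mir7683, Gm51686 and Gm37065 in position, and since the strand setting of the counting is not given, reads of an overlapping pair cannot be told apart.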

How the data were processed

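Raw counts per Ensembl gene were used as deposited by the authors, 1 table of 13 HSC columns and 1 of 5 MPP columns. Per the labels' protocols, HSC RNA was amplified with a NuGEN kit and read as single-end reads, and MPP RNA was poly-A selected with insect carrier RNA and a directional kit. Per the submitters' processing notes, CASAVA 1.8.2 and STAR 2.5.2b were used for HSCs, and STAR 2.7.2a, DESeq2 1.24 and R 3.6.1 for MPPs, on mm10; the sources used here do not give the counter, the annotation release or the strand setting. The labels number a PBS sample 8 where the HSC table has PBS 7, so HSC PBS columns served as group replicates numbered as in the table. The 12 ATAC-seq samples were not analysed here.

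Each table was fitted in R 4.3.3 with edgeR 4.0.16: TMM scaling, the filterByExpr defaults, quasi-likelihood F test, MTP10-HDL over PBS, FDR 0.05 over all genes. The response difference came from 1 fit of both tables with 4 group means. SE is the log2 fold change over the root of F, and 95% intervals use the test's degrees of freedom. CPM are TMM-scaled; permutation tests and correlations used log2(CPM + 1), exact over 1716 HSC or 10 MPP arrangements, or 100000 permutations for the 35 relations of members with marker sums. Poisson intervals and the floor of 3 counts cover counting error only. The scripts were tested on simulated data.

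The members, lists, markers and tests were chosen with earlier results of these data known, and the motifs with the promoter sequences in view. The named genes were the 7 members, the 2 partners of smallest p in each cell type where none passed, the 2 marker genes of highest mean CPM over the 18 libraries in a list, and the 3 genes most like each member. Gene positions and promoters are from RefSeq tables of GRCm38.p6, matched by symbol. Transcript lengths were not used here, so levels were not ranked between genes. Alternatives were DESeq2 1.42.0, limma 3.58.1 (voom), upper-quartile scaling, no filter, totals without immunoglobulin, mitochondrial and ribosomal RNA genes, a replicate block, 3 HSC library sets as covariate, pseudocounts of 0.5 and 2, and each library left out.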

Additional observations from a re-analysis of the deposited data

Results flagged for a closer look

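A library of HSCs stood apart from the others of its group in 4 of the 14 groups of 6 or 7 HSC libraries checked for the members, by the share of the group's range that separates it from the nearest other library. The limit used would mark about 1 in 20 groups if they were independent and their values normally distributed. The same 13 libraries serve every member, so the 4 cannot be set against that rate. Slamf1 was at 26.5 CPM in MTP10-HDL 4, and the next lowest treated library was at 43.0 CPM. Cd244a was at 3.39 CPM in PBS 4, where the next lowest PBS library was at 11.1 CPM and where Slamf6 had no read. Ly9 was at 60.8 CPM in MTP10-HDL 1, with the next library at 32.9 CPM. Slamf6 was at 24.7 CPM in the same library, with the next at 7.24 CPM. MTP10-HDL 1 also held the highest marker sums of the HSC libraries for 3 lists. These were monocytes and macrophages (2626 CPM), dendritic cells (5940 CPM) and mature neutrophils (5973 CPM, 10 markers). The part of these cells in its Ly9 and Slamf6 levels was not tested.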

How the results depend on the processing

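The number of genes past an FDR of 0.05 was 0 in HSCs and became 90 with DESeq2 (22 higher, 68 lower), 44 without a filter on low counts (7 higher, 37 lower) and 0 to 1 with each library left out. In MPPs it was 0 and became 153 with DESeq2 (18 higher, 135 lower), 345 without a filter (49 higher, 296 lower), 43 with a replicate block and 0 to 17 with each library left out, 17 without PBS 3. Members past it in MPPs went from 0 to 1 with DESeq2 (Slamf7) and 2 without a filter (Slamf7 and Cd48). The count of genes whose response differed between cell types was 1, and was 2 with upper-quartile scaling, 4 without a filter and 0 to 2 with each library left out. HSC members at an unadjusted p under 0.05 went from 0 to 1 without a filter (Cd48), 1 with a replicate block (Slamf7), 2 with library sets as a covariate (Cd48 and Slamf7) and 0 to 1 with each library left out; 9.88%, 6.31% and 9.7% of all genes were so under the first 3 settings.

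Signs turned for the following values. The HSC log2 fold change of Cd84, 0.01, became -0.0229 with limma voom, -0.0737 with upper-quartile scaling, -0.0075 with a replicate block, -0.0107 with library sets, -0.16 without MTP10-HDL 1 and PBS 2, and -0.13 to 0.10 with each library left out. Slamf6 in HSCs, -0.62, became 0.57 with limma voom. Ly9 in HSCs became -0.0170 without PBS 5 and PBS 7, the shallowest libraries, -0.17 without MTP10-HDL 1 and PBS 2, and -0.17 to 0.27 with each library left out; both joint exclusions were chosen after seeing the data. With each library left out, MPP values were -0.22 to 0.60 for Slamf6 and -0.0633 to 0.28 for Ly9, and the response differences were -0.15 to 0.28 for Ly9 and -1.24 to 0.15 for Slamf7, 0.15 without HSC MTP10-HDL 1. The cause was not tested.

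On totals without immunoglobulin, mitochondrial and ribosomal RNA genes, mean levels in HSC PBS, which are then shares of a smaller total, were 50.1 CPM for Slamf1, 57.3 for Cd48, 18.3 for Cd244a, 41.2 for Ly9 and 121.0 for Cd84. In HSC MTP10-HDL they were 58.6 for Slamf1, 78.8 for Cd48 and 116.9 for Cd84. In MPP PBS they were 2.32 for Slamf1, 31.0 for Cd244a and 102.6 for Cd84, and in MPP MTP10-HDL 54.6 for Cd244a and 71.2 for Ly9.

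Same-numbered HSC libraries deviated with r of -0.15 to 0.20, and 1 of 6 HSC numbers correlated best with its own. These values do not show a pairing of HSC samples by number, and they cannot exclude it. Same-numbered MPP libraries deviated with r of -0.28 and -0.10. The MPP PBS libraries are too few for this check to decide whether the numbers pair the MPP samples. Slamf1 in MPPs rests on 22 to 29 reads a library, and an MPP exact test cannot go below 0.1.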
